A study of Mus musculus with 12 samples.

Results

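The libraries described here compare papillomas, benign squamous tumours of the skin, with normal epidermis, both from FVB/NJ mice that received acetone vehicle. They are 6 of the 12 libraries of a series that also holds epidermis and papillomas given camphor white oil (CWO), and they were chosen by their labels as the 3 vehicle papilloma and the 3 vehicle epidermis libraries. Polyadenylated RNA was sequenced, and expression per gene is given as FPKM, which scales the fragments of a gene by the length of its transcript and the size of the library. For epidermis, mice were shaved and a week later 400 µL vehicle was put on the skin; after 24 h the epidermis was loosened by 40 min in 3.8% ammonium thiocyanate, and of 5 mice treated the 3 samples with the best RNA integrity were sequenced. For papillomas, mice were shaved at 6 to 7 weeks of age in the resting phase of the hair cycle. They received a single dose of 400 nmol DMBA, a polycyclic carcinogen, followed by 10 nmol of TPA, a phorbol ester, given repeatedly each week. The tumour burden is given as reached by 15 weeks. Vehicle was then applied for 6 weeks, and each of 3 mice gave 4 premalignant tumours, matched in size, which were pooled. The age of the epidermis donors is not given in the labels, so age may differ between the tissues as well. The comparison therefore sets whole tumours against separated epidermis: tissue, exposure to DMBA and TPA, length of vehicle treatment and mode of isolation differ together, and their parts cannot be told apart.

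Epidermis is a stratified epithelium. Basal keratinocytes divide on the basement membrane and express Krt5 and Krt14, their daughters switch to Krt1 and Krt10 as they move up, and the outermost cells build a cornified envelope from loricrin, small proline-rich (Sprr) and late cornified envelope (Lce) proteins that are crosslinked by transglutaminases. In chemical carcinogenesis of mouse skin, DMBA leaves activating mutations, most often in Hras, and TPA promotes the growth of mutated clones through protein kinase C and AP-1, the dimers of FOS and JUN proteins that bind the AP-1 element in DNA. Wounded and hyperproliferative epidermis is known to switch on Krt6, Krt16, Sprr genes and S100 alarmins.

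Because AP-1 is a textbook effector of TPA, a form of the AP-1 element was looked for upstream of the genes that differed most. The search used TGANTCA, which reads the same on both strands and is looser than the classical element, TGAGTCA or TGACTCA. The 250 bases before the annotated start of 4 of the 12 genes with the largest rises, chosen because they hold a match, are printed from the RefSeq table of build GRCm38.p6, 5′ to 3′ in the direction of transcription, with each TGANTCA in capitals: Sprr2k (chr3:92432332-92432581, plus strand, matches starting 196 and 182 bases before the start), Sprr1b (chr3:92438780-92439029, minus strand, 111 bases before), Rptn (chr3:93393449-93393698, plus strand, 96 bases before) and Krt13 (chr11:100121567-100121816, minus strand, the first of its 2 listed starts, 196 bases before).

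Sprr2k: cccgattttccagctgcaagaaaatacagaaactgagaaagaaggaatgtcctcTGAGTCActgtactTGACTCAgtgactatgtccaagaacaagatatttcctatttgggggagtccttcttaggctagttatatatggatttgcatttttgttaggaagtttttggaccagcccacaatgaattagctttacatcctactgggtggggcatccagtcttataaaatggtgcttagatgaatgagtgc
Sprr1b: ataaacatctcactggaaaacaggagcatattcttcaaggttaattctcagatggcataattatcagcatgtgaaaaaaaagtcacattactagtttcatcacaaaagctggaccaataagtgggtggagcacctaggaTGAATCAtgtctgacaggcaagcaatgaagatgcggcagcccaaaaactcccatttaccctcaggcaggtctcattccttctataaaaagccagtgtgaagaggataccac
Rptn: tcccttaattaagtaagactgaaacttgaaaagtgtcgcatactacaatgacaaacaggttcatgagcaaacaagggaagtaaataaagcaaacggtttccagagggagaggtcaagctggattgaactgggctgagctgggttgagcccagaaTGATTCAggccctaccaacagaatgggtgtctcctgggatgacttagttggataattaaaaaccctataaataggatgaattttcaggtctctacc
Krt13: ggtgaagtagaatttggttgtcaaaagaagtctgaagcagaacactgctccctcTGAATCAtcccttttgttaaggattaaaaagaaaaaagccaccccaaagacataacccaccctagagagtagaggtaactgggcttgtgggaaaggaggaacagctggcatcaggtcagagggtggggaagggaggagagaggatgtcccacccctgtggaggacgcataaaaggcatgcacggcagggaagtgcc

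Of the 12 genes with the largest rises, 11 had an entry in the table and 5 held TGANTCA in the 300 bases from 250 before to 50 after the start, while 1 of 10 matched genes did so among the 12 largest falls. Over all 10163 matched genes tested the share was 7.12%, and it was 7.81% of all 32851 windows in the table. Among genes called higher by at least 2-fold it was 9.67% and among those called lower by at least 2-fold 9.15%. Where the change reached 16-fold, a limit chosen after the data were seen, the share was 24.4% (20 of 82 matched genes) for the higher and 16.1% (10 of 62) for the lower group. With the classical letters alone it was 17.1% (14 of 82) and 16.1% (10 of 62), against 5.24% of all matched genes tested, so the higher and lower groups lay close together. Of the sequences printed, Sprr2k alone holds the classical letters. Krt13 holds them before its other listed start, and Sprr2i holds them too, but neither sequence is printed. In the same window, 3 of the 11 matched genes among the largest rises held the classical letters. Among the largest falls 1 of 10 matched genes did. These are counts of letters, without a test, and say nothing of whether a factor binds there.

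The deposited tables list 23235 gene symbols. The recovered fragment totals were 13028000, 11099000 and 24574000 in epidermis 1 to 3 and 15593000, 19455000 and 19014000 in papilloma 1 to 3. Each library had 11999 to 12452 genes at 1 FPKM or more. Libraries of a tissue correlated at r = 0.965 to 0.988 over log2 values, and libraries of different tissues at 0.756 to 0.821 (across genes, which are not replicates). Keratinocyte markers were present in all 6 libraries: Krt5 was at 2580.2, 3173 and 3216 in epidermis against 3252, 3313 and 3074 FPKM in papilloma. Epidermis 1 and 2 stood apart by their skeletal muscle transcripts: over the 23 muscle genes tested the mean log2(FPKM + 1) was 7.79, 8.26 and 6.11 in epidermis and 1.70, 3.77 and 1.79 in papilloma. Endothelial genes were likewise highest in epidermis 1 within that tissue (mean log2 level 1.84, 1.09 and 0.84), and hair keratins in epidermis 3. In tissue RNA, fewer cells of a type and less RNA per cell cannot be told apart, which holds for every cell type named here. The counts that follow were therefore also made with epidermis 1 and 2 left out.

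The tissues differed in most of the genes expressed. Of 12789 genes tested with limma on log2(FPKM + 1), 8974 (70.2%) differed at a Benjamini-Hochberg adjusted p under 0.05, 4070 (31.8%) higher and 4904 (38.3%) lower in papilloma. The libraries of the tissues did not overlap for 74.5% of all genes tested, which is the background for each gene described as not overlapping. Requiring a change of at least 2-fold as well left 1702 genes higher (13.3% of those tested) and 2146 lower (16.8%), and the median log2 fold change over all genes was -0.071. These shares are the background for every gene list below: a list is given by how many of its tested members were called and changed at least 2-fold in each direction, and by its median. A member expressed in 1 tissue alone passes the filter through that tissue and had to differ, so these counts describe the members and are not a test of the list. All changes are on the log2(FPKM + 1) scale, papilloma minus epidermis, with standard errors from limma, and they understate the change of genes with low values. With epidermis 1 and 2 left out the counts at 2-fold were 1544 higher and 2228 lower. In that setting epidermis is 1 library with no spread of its own, which is assumed to vary as the papillomas do, so its p-values rest on the spread of the papillomas. With median-ratio scaling of the libraries 50.2% of all calls were higher, against 45.4% without it, and with a 2-fold minimum built into the test 932 genes were higher and 1243 lower.

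**Figure D1:**
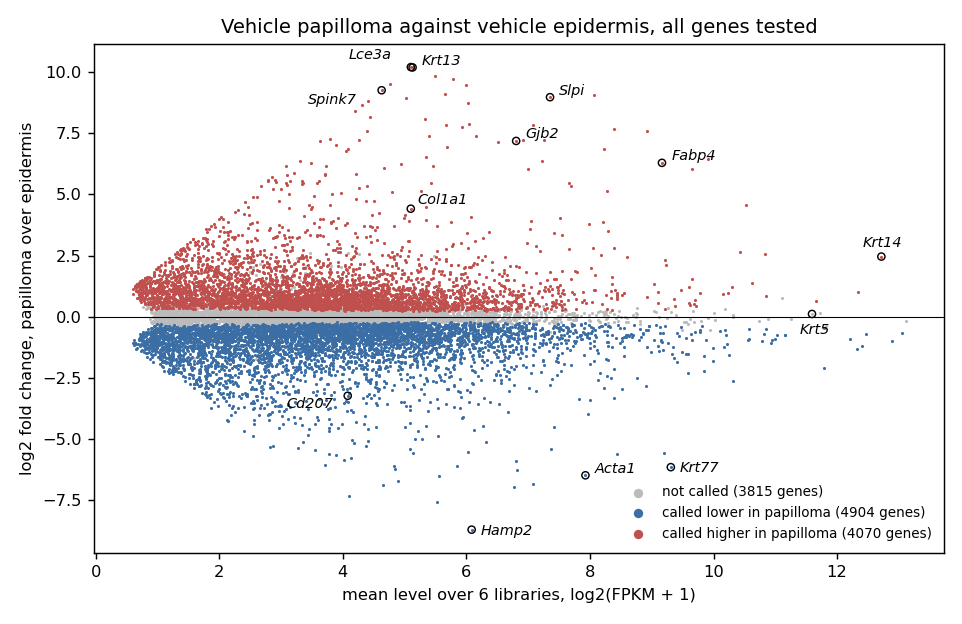
Each point is a gene tested, placed by its mean level over the 6 libraries as log2(FPKM + 1) (horizontal) and its log2 fold change, papilloma over epidermis (vertical); red and blue points were called higher (4070) and lower (4904), and grey points were not called. Lce3a and Krt13 stand at the top with log2 fold changes of 10.20 and 10.19, Hamp2 at the bottom with -8.71, and Krt5 lies near 0.

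The largest rises were in genes of the cornified envelope. Of the 12, 8 lie on chromosome 3 between 92.21 and 93.2 Mb (mm9), in the epidermal differentiation complex: Lce3a, Lce3b, Lce3f, Sprr2k, Sprr2i, Sprr1b, Sprr3 and Rptn. Lce3a, a late cornified envelope protein, was listed at 0 in all 3 epidermis libraries and at 1054, 937 and 1652 FPKM in papilloma (log2 fold change 10.20 ± 0.19, adjusted p = 1.23e-08). Sprr2k was listed at 0 in all 3 epidermis libraries and at 673, 614 and 962 FPKM in papilloma (log2 fold change 9.52 ± 0.16, adjusted p = 9.09e-09). Lce3a, Sprr2k, Sprr3 and Spink7 were at 0 in every epidermis library, so the size of their change depends on the pseudocount. Krt13, a keratin of the lining of mouth and oesophagus, was at 0, 0 and 0.0741 in epidermis against 529, 1680.5 and 1918 FPKM in papilloma (log2 fold change 10.19 ± 0.42, adjusted p = 5.57e-07); papilloma 1 had the lowest of the papilloma values and still lay far above every epidermis library. Rptn (repetin), another envelope precursor, was at 1.18, 0.830 and 1.48 in epidermis against 931, 1064 and 1662 FPKM in papilloma (log2 fold change 9.11 ± 0.21, adjusted p = 3.82e-08). Sprr1b was at 4.39, 8.78 and 28.3 in epidermis against 6537, 5628 and 6667 FPKM in papilloma (log2 fold change 9.08 ± 0.51, adjusted p = 2.22e-06), with epidermis 3 the highest of its group. The other 3 of the 12 encode secreted proteases and inhibitors: Spink7, a Kazal-type inhibitor (log2 fold change 9.26 ± 0.13, adjusted p = 4.96e-09), Slpi, the secretory leukocyte protease inhibitor (log2 fold change 8.97 ± 0.21, adjusted p = 4.23e-08), and Klk14, a trypsin-like kallikrein (log2 fold change 8.95 ± 0.19, adjusted p = 2.23e-08).

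Among the 12 largest falls, 7 were muscle genes: Pvalb, Myh4, Ckm, Tnnc2, Acta1, Tnnt3 and Myl1. Acta1, skeletal alpha-actin, was at 2786, 4936 and 887 in epidermis against 10.2, 108 and 13.0 FPKM in papilloma (log2 fold change -6.48 ± 0.90, adjusted p = 0.000281), and both tissues varied widely between their own libraries. The other 5 are not muscle genes. Hamp2, a hepcidin paralogue, was at 1497, 1208 and 1474 in epidermis against 3.15, 6.20 and 0.226 FPKM in papilloma (log2 fold change -8.71 ± 0.54, adjusted p = 3.54e-06). Krt77, a type II keratin, was at 4639.7, 6582 and 5005 in epidermis against 72.2, 117 and 48.2 FPKM in papilloma (log2 fold change -6.15 ± 0.29, adjusted p = 1.07e-06). Cyp2g1, a cytochrome P450, was at 429.7, 435 and 485 in epidermis against 2.89, 10.6 and 1.56 FPKM in papilloma (log2 fold change -6.53 ± 0.46, adjusted p = 7.22e-06). Serpinb6e, an intracellular serpin, and Ifitm6, of the interferon-induced transmembrane family, had log2 fold changes of -6.86 and -6.71. For each of these 5 the epidermis libraries lay within 2-fold of each other and above every papilloma library.

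The keratins of the basal layer parted. Krt5 did not differ detectably (log2 fold change 0.11 ± 0.16, adjusted p = 0.557), while its partner Krt14 was at 2605, 3164 and 2876 in epidermis against 15369, 16149 and 15824 FPKM in papilloma (log2 fold change 2.46 ± 0.18, adjusted p = 9.67e-06), with no overlap. Krt15, a keratin of quiescent basal and follicle stem cells, was at 2343, 2466 and 2499.8 in epidermis against 62.1, 62.6 and 28.5 FPKM in papilloma (log2 fold change -5.63 ± 0.27, adjusted p = 1.13e-06), the reverse of Krt14. Trp63, the p63 transcription factor that defines stratified epithelia, was at 91.5, 97.7 and 122 in epidermis against 99.4, 91.1 and 86.7 FPKM in papilloma (log2 fold change -0.16 ± 0.12, adjusted p = 0.281) and its groups overlapped. With epidermis 3 alone the log2 fold change was -0.40. Of the 16 basal layer genes tested, 9 were higher and 2 lower at 2-fold (median log2 fold change 1.22). The higher members with the smallest p encode matrix receptors and laminin. Itgb1, an integrin subunit, was at 23.8, 22.8 and 29.1 in epidermis against 127, 108 and 97.7 FPKM in papilloma (log2 fold change 2.09 ± 0.13, adjusted p = 3.65e-06). Itga6, another integrin subunit, rose by 1.94 on the log2 scale, and Lama3, a chain of the basement membrane laminin, by 2.34. Col17a1, a hemidesmosome collagen, fell by 0.55 and Igfbp3, a binding protein for insulin-like growth factors, fell by 1.36.

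Suprabasal genes moved in both directions, 4 higher and 3 lower at 2-fold of 17 tested (median 0.22); the counts were 4 and 4 without epidermis 1 or without papilloma 3, and 4 higher and 5 lower (median 0.086) with epidermis 1 and 2 left out. Krt1 was at 2224, 2853 and 2772 in epidermis against 3635, 3472 and 5153 FPKM in papilloma (log2 fold change 0.63 ± 0.21, adjusted p = 0.0244). Krt10, with which it pairs, was at 9174, 11631 and 11386 in epidermis against 5227, 4114 and 7084 FPKM in papilloma (log2 fold change -1.0 ± 0.25, adjusted p = 0.00742). The call of Krt1 was lost without epidermis 1 (0.52, adjusted p = 0.062) and without papilloma 3 (0.45, adjusted p = 0.102), and that of Krt10 without papilloma 2 (-0.81, adjusted p = 0.0556). Without the filter on low values both lost it, with adjusted p of 0.0902 for Krt1 and 0.0714 for Krt10. Krt1 also lost it in a fit with all 12 libraries (0.083) and against epidermis 3 alone (0.54, adjusted p = 0.126). The groups did not overlap for either gene. Tgm3, a transglutaminase of late differentiation, was at 3.45, 2.44 and 5.37 in epidermis against 413, 605 and 738 FPKM in papilloma (log2 fold change 6.95 ± 0.26, adjusted p = 3.64e-07). Tgm1, the keratinocyte transglutaminase, rose by 1.84 on the log2 scale. Krt2, a keratin of the upper layers, was at 6.89, 10.4 and 6.47 in epidermis against 0.298, 0.251 and 0.511 FPKM in papilloma (log2 fold change -2.70 ± 0.18, adjusted p = 5.54e-06). Grhl1, a grainyhead transcription factor, fell by 0.86.

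The list of cornified envelope and filaggrin genes divided member by member. Its higher members include Rptn, described above, which was low in epidermis. Of 28 listed, 25 were tested, 10 higher and 7 lower at 2-fold (median 0.79), against 8 and 8 without epidermis 1 and 6 and 8 without papilloma 3; filaggrin (Flg) is not listed in the tables. Lor, loricrin, the main envelope protein of resting epidermis, was at 5834, 8202 and 8289 in epidermis against 1364, 1713 and 2159 FPKM in papilloma (log2 fold change -2.10 ± 0.23, adjusted p = 7.49e-05). Lce1m was at 3745, 4639.9 and 3943 in epidermis against 79.1, 100.1 and 74.3 FPKM in papilloma (log2 fold change -5.59 ± 0.15, adjusted p = 6.75e-08), while its neighbour Lce1g was at 20.1, 27.4 and 24.7 in epidermis against 269, 222 and 336 FPKM in papilloma (log2 fold change 3.45 ± 0.17, adjusted p = 1.16e-06). Flg2, a filaggrin relative, was at 216, 255 and 277 in epidermis against 17.7, 24.4 and 19.1 FPKM in papilloma (log2 fold change -3.55 ± 0.14, adjusted p = 4.70e-07). Lce1a2 and Lce1l had log2 fold changes of -1.52 and -1.29. On the higher side, Casp14, the protease that processes filaggrin, was at 52.9, 62.9 and 59.6 in epidermis against 634, 516 and 634 FPKM in papilloma (log2 fold change 3.32 ± 0.12, adjusted p = 2.86e-07). Cnfn, cornifelin, rose by 2.64. Members of the same gene cluster thus lay on both sides.

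The tested genes that stressed skin adds to the envelope rose, except for Sprr4. Gm4858, listed with them but below the filter, did not rise. It was at 0.283, 0.227 and 0.136 FPKM in epidermis against 0, 0.0314 and 0.128 FPKM in papilloma. Of 21 listed late-envelope genes, 17 were tested and 16 were higher by at least 2-fold, with a median log2 fold change of 8.06; the remaining member, Sprr4, was at 48.6, 51.9 and 55.9 in epidermis against 74.3, 109 and 50.9 FPKM in papilloma (log2 fold change 0.51 ± 0.23, adjusted p = 0.0843). It was called higher without papilloma 3 (0.78, adjusted p = 0.00586), with the replicate number as a block (adjusted p = 0.0477) and with median-ratio scaling (0.0406) or quantile normalization (0.0329). Lce3b was at 0.645, 0.582 and 0.233 in epidermis against 1243, 1138 and 1767 FPKM in papilloma (log2 fold change 9.85 ± 0.18, adjusted p = 1.18e-08). Lce3c was at 6.89, 7.52 and 9.48 in epidermis against 1916, 1744 and 2565 FPKM in papilloma (log2 fold change 7.85 ± 0.17, adjusted p = 2.14e-08). The Sprr2 genes are near-identical copies, so their single values depend on how reads were divided among them.

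Stress keratins, alarmins and antimicrobial proteins rose with them: 15 of 20 tested were higher at 2-fold, with a median of 6.08, and S100a10 was the member called lower (log2 fold change -0.45 ± 0.14, adjusted p = 0.0177). That call was lost without epidermis 3 (adjusted p = 0.0528), papilloma 2 (0.0637) or papilloma 3 (0.0675), and with quantile normalization (0.0546). Krt16, the keratin of wounded and hyperproliferative epidermis, was at 76.8, 93.7 and 150.1 in epidermis against 8573, 8876 and 9485 FPKM in papilloma (log2 fold change 6.44 ± 0.23, adjusted p = 2.86e-07). Krt17, another stress keratin, was at 864, 1190.1 and 1092 in epidermis against 1151, 1491 and 1308 FPKM in papilloma and was not called (log2 fold change 0.33 ± 0.17, adjusted p = 0.103), but was called without epidermis 2 (0.43, adjusted p = 0.0469). Krt6a and Krt6b could not be tested, because Cufflinks gave them no value in papilloma 2 and 3; in the other 4 libraries Krt6a was at 91.2, 104 and 115 FPKM in epidermis and 9169 FPKM in papilloma 1, and Krt6b at 14.2, 23.2 and 35 against 9353 FPKM. S100a8, a subunit of calprotectin, was at 60.1, 118 and 138 in epidermis against 5931, 5458 and 8455 FPKM in papilloma (log2 fold change 6.02 ± 0.31, adjusted p = 1.36e-06). Slpi was at 4.56, 9.40 and 5.71 in epidermis against 3312, 3591 and 4142 FPKM in papilloma, and no epidermis library reached a papilloma value. Stfa2 and Stfa3, stefin A cysteine protease inhibitors, rose by 7.86 and 6.84 on the log2 scale, and Defb14, a beta-defensin, was at 61.4, 44.9 and 48.5 in epidermis against 1988, 1560.0 and 2015 FPKM in papilloma (log2 fold change 5.14 ± 0.15, adjusted p = 1.13e-07).

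**Figure D2:**
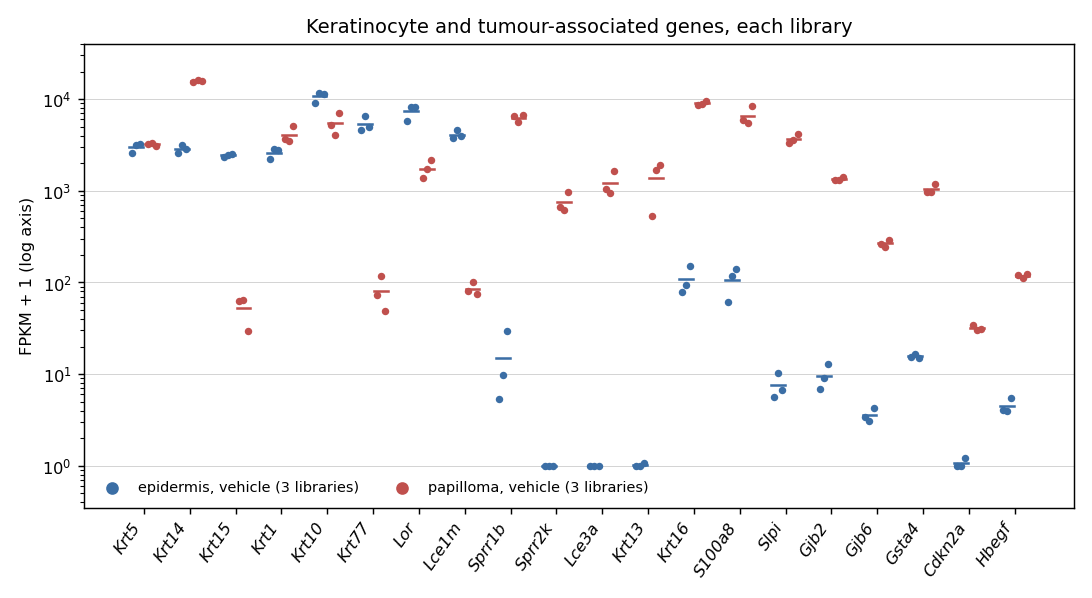
FPKM + 1 on a log axis for 20 keratinocyte and tumour-associated genes; each point is a library, blue for epidermis and red for papilloma (3 each), and bars mark the group mean. Krt5 is level between the tissues, Krt15, Krt77, Lor and Lce1m are lower in papilloma, and Sprr2k, Lce3a and Krt13 go from the bottom of the axis in epidermis to 529 to 1918 FPKM in papilloma for Krt13.

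Among keratins and claudins of simple and mucosal epithelia, 9 of 15 listed genes were tested. Besides Krt13, Krt4, its partner in mucosa, was at 0.564, 0.472 and 0.553 in epidermis against 24.4, 60.6 and 77.1 FPKM in papilloma (log2 fold change 5.02 ± 0.36, adjusted p = 7.60e-06). Krt23, Krt80, Cldn4 and Epcam were lower, and Krt23 was at 309, 387 and 372 in epidermis against 37.1, 54.8 and 46.3 FPKM in papilloma (log2 fold change -2.93 ± 0.15, adjusted p = 1.52e-06). Krt18, a keratin of simple epithelia known from malignant squamous tumours of mouse skin, was at 7.97, 0.152 and 0.206 in epidermis against 9.12, 6.66 and 4.9 FPKM in papilloma and was not called (log2 fold change 1.73 ± 0.71, adjusted p = 0.0571). Without epidermis 1 it was called higher (2.71, adjusted p = 7.24e-05), as it was with the replicate block (adjusted p = 0.0055) and by limma-voom (3.43, adjusted p = 0.0133). Its partner Krt8 lay below the filter, at 4.63, 0.967 and 0.769 in epidermis against 0.978, 0.755 and 0.385 FPKM in papilloma (exact permutation test, two-sided p = 0.3, where 0.1 is the smallest p that 3 against 3 allows).

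Kallikreins, secreted serine proteases that cut the links between corneocytes, and their inhibitors were 11 of 17 higher at 2-fold (median 3.03). Klk10 was at 11.3, 11.6 and 11.6 in epidermis against 1719.7, 1792 and 2146 FPKM in papilloma (log2 fold change 7.23 ± 0.10, adjusted p = 4.96e-09). Klk13 was at 1.76, 2.76 and 2.68 in epidermis against 724, 758 and 841 FPKM in papilloma (log2 fold change 7.84 ± 0.13, adjusted p = 9.09e-09). Klk12 was at 0.201, 0.126 and 0.0568 in epidermis against 158, 159 and 198 FPKM in papilloma (log2 fold change 7.25 ± 0.12, adjusted p = 9.09e-09). Spink7, the inhibitor among the largest rises, was listed at 0 in all 3 epidermis libraries and at 646, 499.6 and 704 FPKM in papilloma. On the other side, Klk5, which starts the kallikrein cascade, was at 237, 305 and 242 in epidermis against 110.1, 129 and 118 FPKM in papilloma (log2 fold change -1.12 ± 0.12, adjusted p = 7.32e-05). Cst6, the epidermal cystatin, fell by 1.34, and St14, matriptase, fell by 0.45. In the Serpinb clade of intracellular serpins 6 of 14 tested were higher and 1 lower at 2-fold (median 0.70). Serpinb3a, a squamous cell carcinoma antigen homologue, was at 0.306, 0.384 and 0.259 in epidermis against 174, 138 and 196 FPKM in papilloma (log2 fold change 7.00 ± 0.14, adjusted p = 1.69e-08). Serpinb1a, Serpinb6c and Serpinb11 rose by 3.55, 4.01 and 4.71 on the log2 scale. Serpinb7 was at 179, 253 and 228 in epidermis against 16.2, 18 and 22.6 FPKM in papilloma (log2 fold change -3.47 ± 0.16, adjusted p = 8.77e-07).

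Cell junction genes exchanged members. Among connexins and pannexins, 4 of 10 were higher and 4 lower at 2-fold. Gjb2, a connexin, was at 5.90, 7.98 and 11.9 in epidermis against 1314, 1327 and 1404 FPKM in papilloma (log2 fold change 7.18 ± 0.20, adjusted p = 9.22e-08). Gjb6, another connexin, was at 2.41, 2.05 and 3.25 in epidermis against 264, 244 and 289.7 FPKM in papilloma (log2 fold change 6.24 ± 0.14, adjusted p = 2.41e-08). Gjb5, a connexin of normal differentiating layers, was lower, at 177, 225 and 182 in epidermis against 16.2, 25.3 and 25.2 FPKM in papilloma (log2 fold change -3.09 ± 0.18, adjusted p = 2.48e-06). Of the desmosome genes 4 of 17 were higher and 1 lower (median 0.22). Dsc2, a desmosomal cadherin, was at 4.23, 4.12 and 9.21 in epidermis against 240.5, 279.6 and 336 FPKM in papilloma (log2 fold change 5.45 ± 0.26, adjusted p = 1.07e-06). Dsg3, the cadherin of basal layers, was at 13.3, 14.5 and 19.0 in epidermis against 246, 276 and 298 FPKM in papilloma (log2 fold change 4.06 ± 0.14, adjusted p = 2.46e-07). The desmoglein paralogues parted, Dsg1b with a log2 fold change of 2.07 and Dsg1a with -1.19. Tight junction genes were lower in 8 and higher in 2 of 13 (median -1.38). Cldn3 was at 27.7, 31.5 and 28.6 in epidermis against 0.617, 0.858 and 0.438 FPKM in papilloma (log2 fold change -4.21 ± 0.13, adjusted p = 1.58e-07). Cldn23 fell by 4.24, and Cgn, cingulin, and Marveld2, tricellulin, had log2 fold changes of -2.01 and -2.25. Cldn8 was the claudin called higher with the smallest p, at 2.19, 1.86 and 1.94 in epidermis against 24.9, 30.4 and 20.3 FPKM in papilloma (log2 fold change 3.11 ± 0.15, adjusted p = 1.21e-06).

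Transcription factors of squamous epithelia were 9 of 28 higher and 4 lower at 2-fold (median 0.47). Pitx1, a homeobox factor known from hindlimb development, was at 0.194, 0.446 and 0.201 in epidermis against 103, 94.0 and 98.4 FPKM in papilloma (log2 fold change 6.28 ± 0.12, adjusted p = 1.18e-08). Pax9, a factor of the oral and oesophageal epithelium, was listed at 0 in all 3 epidermis libraries and at 5.33, 6.07 and 5.96 FPKM in papilloma (log2 fold change 2.76 ± 0.11, adjusted p = 5.59e-07). The ETS factors Ehf and Elf3 were higher, Ehf at 4.81, 5.89 and 6.30 in epidermis against 73.5, 80.8 and 96.0 FPKM in papilloma (log2 fold change 3.66 ± 0.13, adjusted p = 3.02e-07) and Elf3 with a log2 fold change of 2.65. Gata3, needed for hair follicle and barrier formation, was at 163, 166 and 193 in epidermis against 16.5, 25.7 and 17.3 FPKM in papilloma (log2 fold change -3.09 ± 0.16, adjusted p = 1.68e-06). Cebpa, a brake on keratinocyte division, was at 275, 322 and 347 in epidermis against 89.8, 129 and 119 FPKM in papilloma (log2 fold change -1.49 ± 0.15, adjusted p = 4.98e-05). Sox21, a follicle and surface factor, fell by 1.45.

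Sebaceous gland genes, which make the skin's surface lipids, were lower in 16 of 19 tested (median -2.73). Scd3 and Scd1 are stearoyl-CoA desaturases of the gland. Scd3 was at 119, 114 and 137 in epidermis against 1.14, 1.86 and 0.529 FPKM in papilloma (log2 fold change -5.87 ± 0.21, adjusted p = 3.01e-07). Scd1 was at 725, 833 and 949.6 in epidermis against 86.3, 139 and 39.5 FPKM in papilloma (log2 fold change -3.39 ± 0.38, adjusted p = 8.96e-05). Plin2, a lipid droplet coat, and Cidea, a droplet protein, had log2 fold changes of -2.28 and -2.79, and Elovl5, a fatty acid elongase, fell by 3.04. The list's mean log2 level was 6.13 to 6.37 in epidermis and 3.50 to 4.44 in papilloma, lowest in papilloma 3. Of its members, Fabp4 and Fads2 went the other way. Fabp4, a fatty acid binding protein best known from adipocytes, was at 271, 29.7 and 31.8 in epidermis against 5207, 4991 and 5036 FPKM in papilloma (log2 fold change 6.29 ± 0.73, adjusted p = 0.000105). Other adipocyte genes did not follow it: 8 of 10 tested were lower at 2-fold (5 without papilloma 3, and 4 with epidermis 3 alone), and Lipe, hormone-sensitive lipase, was the other member called higher (log2 fold change 1.08 ± 0.12, adjusted p = 9.08e-05). Adipoq, adiponectin, was at 14.3, 3.73 and 1.4 in epidermis against 0, 1.42 and 0.301 FPKM in papilloma (log2 fold change -1.93 ± 0.62, adjusted p = 0.0222), highest in epidermis 1. Its call was lost without papilloma 1 (adjusted p = 0.0714) or papilloma 3 (0.0686), with robust variance (0.103), without the filter on low values (0.0547) and by limma-voom (0.0623). With epidermis 3 alone its log2 fold change was -0.71 (adjusted p = 0.235).

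Genes for barrier lipids were 7 of 23 higher and 6 lower at 2-fold (median 0.37). Degs2, which makes phytoceramides, was at 2.58, 1.79 and 2.60 in epidermis against 131, 116 and 155 FPKM in papilloma (log2 fold change 5.34 ± 0.15, adjusted p = 8.20e-08). Ugcg, the glucosylceramide synthase, rose by 1.8. The ceramide synthases parted: Lass3 was at 28.5, 30.9 and 36.4 in epidermis against 117, 136 and 149 FPKM in papilloma (log2 fold change 2.03 ± 0.13, adjusted p = 3.49e-06). Lass4 was at 114, 123 and 115 in epidermis against 12.7, 22.5 and 6.28 FPKM in papilloma (log2 fold change -3.15 ± 0.35, adjusted p = 8.39e-05). Acer1, an alkaline ceramidase, fell by 2.60, and Elovl4, which elongates the very long chains of barrier ceramides, fell by 1.22. In cholesterol synthesis 5 of 20 were higher and 2 lower, with a median of 0.12: Idi1 and Hsd17b7 rose by 1.5 and 1.72, while Dhcr7, a late reductase of the pathway, fell by 1.42.

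Hair follicle genes were uneven within the tissues. Of 29 listed, 24 were tested, 9 higher and 4 lower at 2-fold (median 1.16), against 16 higher without epidermis 3. With epidermis 1 and 2 left out 8 were higher, 8 were lower and the median was -0.63. Krt25, a keratin of the inner root sheath, was at 0.854, 0.0630 and 1.96 in epidermis against 27.4, 176 and 118 FPKM in papilloma (log2 fold change 5.55 ± 0.64, adjusted p = 0.000104). Krt27, also of this sheath, was at 0.871, 0.273 and 2.83 in epidermis against 22.5, 119.9 and 90.5 FPKM in papilloma (log2 fold change 4.93 ± 0.62, adjusted p = 0.000158). Padi3, a deiminase of the root sheath, rose by 4.16. Hair shaft keratins rested on epidermis 3, where Krt31 was at 54.7 FPKM against 1.5 and 0.149 FPKM in epidermis 1 and 2 (not called, log2 fold change 1.13 ± 1.28, adjusted p = 0.453). Krt31 was called higher without epidermis 3 (2.81, adjusted p = 0.00324) while its log2 fold change was -2.23 against epidermis 3 alone. Of the named genes known from follicle stem cells, Lhx2, Lgr6, Sox9, Krt15 and Lrig1 were lower. Cd34 and Dkk3, which were chosen after their values were seen, were higher. Lhx2, a homeobox factor of these cells, was at 8.4, 7.08 and 11.8 in epidermis against 0.971, 2.54 and 0.888 FPKM in papilloma (log2 fold change -2.07 ± 0.27, adjusted p = 0.000198). Lgr6 fell by 1.42 and Sox9 fell by 1.14. Cd34, a surface protein of the bulge that vessels also express, was at 15.5, 12.1 and 10.5 in epidermis against 39.6, 31.7 and 26.0 FPKM in papilloma (log2 fold change 1.28 ± 0.18, adjusted p = 0.000318), and Dkk3, a dickkopf relative, rose by 1.44.

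Proliferation genes were higher in papilloma. Of 30 mitosis genes 28 were higher at 2-fold, with a median log2 fold change of 1.99. Mki67, the proliferation marker, was at 3.74, 2.62 and 5.28 in epidermis against 25.3, 24.7 and 24.6 FPKM in papilloma (log2 fold change 2.44 ± 0.19, adjusted p = 1.06e-05). Bub1, a spindle checkpoint kinase, was at 0.561, 0.397 and 0.714 in epidermis against 7.47, 6.86 and 5.83 FPKM in papilloma (log2 fold change 2.31 ± 0.14, adjusted p = 3.09e-06), and Plk1, Cdc20 and Aurkb, regulators of mitotic entry and exit, rose by 2.51, 2.13 and 2.06 on the log2 scale. Epidermis 3 had the highest value of its group for each of these, and no papilloma library overlapped with it. Ttk, also a checkpoint kinase, was the member called lower, at 16.7, 13.5 and 19.8 in epidermis against 9.29, 9.51 and 9.71 FPKM in papilloma (log2 fold change -0.74 ± 0.14, adjusted p = 0.00158). DNA replication genes changed less: 24 of 30 were called higher, 8 of them by 2-fold (median 0.78), or 5 by 2-fold with epidermis 3 alone. Mcm5, of the replicative helicase, was at 10.9, 9.97 and 11.4 in epidermis against 37.4, 38.8 and 36.1 FPKM in papilloma (log2 fold change 1.71 ± 0.093, adjusted p = 1.94e-06). Rrm1, a ribonucleotide reductase subunit, rose by 1.8, and Ccne1, cyclin E, by 2.13, while E2f1 fell by 0.56.

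Regulators of G1 pointed both ways, 6 called higher and 7 lower of 14, with 3 and 1 at 2-fold. Ccnd1, a D-type cyclin, was at 29.7, 30.6 and 39.2 in epidermis against 189, 145 and 124 FPKM in papilloma (log2 fold change 2.16 ± 0.17, adjusted p = 1.19e-05). Ccnd2 was at 36.7, 35 and 37.3 in epidermis against 14.4, 19.7 and 14.5 FPKM in papilloma (log2 fold change -1.13 ± 0.13, adjusted p = 9.34e-05): Ccnd1 rose and Ccnd2 fell. Cdkn2a, which encodes the tumour suppressors INK4A and ARF, was at 0, 0 and 0.228 in epidermis against 33.1, 29.5 and 29.7 FPKM in papilloma (log2 fold change 4.89 ± 0.13, adjusted p = 7.54e-08). Cdkn1a, the inhibitor induced by p53, was at 274, 317 and 317 in epidermis against 205, 178 and 186 FPKM in papilloma (log2 fold change -0.67 ± 0.10, adjusted p = 0.00054). Cdk6 and E2f3 rose by 1.19 and 0.77. Among p53 target genes 5 of 21 were higher and 3 lower at 2-fold (median 0.67). Plk2 was at 16.8, 11.8 and 18 in epidermis against 99.7, 73.3 and 79.0 FPKM in papilloma (log2 fold change 2.37 ± 0.17, adjusted p = 8.63e-06). Pmaip1, which encodes NOXA, rose by 2.19, while Bbc3, which encodes PUMA, and Sesn1 had log2 fold changes of -1.62 and -1.37. Cdkn1a is a member of both lists.

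EGFR ligands make up the autocrine loop through which RAS and TPA are known to drive keratinocyte growth. Of 13 ligands and receptors tested 6 were higher and 3 lower at 2-fold (median 0.57), and the higher ones were ligands. Hbegf was at 3.01, 2.93 and 4.42 in epidermis against 119, 110.0 and 121 FPKM in papilloma (log2 fold change 4.74 ± 0.14, adjusted p = 1.06e-07). Areg, amphiregulin, was at 6.51, 4.86 and 5.29 in epidermis against 57.1, 43.1 and 42.1 FPKM in papilloma (log2 fold change 2.88 ± 0.15, adjusted p = 1.51e-06). Ereg, epiregulin, was at 7.76, 9.50 and 8.70 in epidermis against 36.7, 36.0 and 38.9 FPKM in papilloma (log2 fold change 1.99 ± 0.10, adjusted p = 1.44e-06). Nrg1, a ligand of ERBB3 and ERBB4, rose from near 0, at 0.0382, 0.335 and 0.259 in epidermis against 10.6, 7.97 and 8.68 FPKM in papilloma (log2 fold change 3.06 ± 0.15, adjusted p = 1.33e-06). Btc, betacellulin, fell instead, at 32.0, 36.0 and 35.7 in epidermis against 5.46, 5.83 and 6.76 FPKM in papilloma (log2 fold change -2.34 ± 0.11, adjusted p = 9.67e-07). Nrg4 fell by 1.44. The receptors moved little beside the ligands: Egfr was at 12.8, 12.9 and 15.3 in epidermis against 18.1, 22.3 and 22.2 FPKM in papilloma (log2 fold change 0.57 ± 0.12, adjusted p = 0.00298). Erbb2 was at 64.3, 64.3 and 71.9 in epidermis against 36.5, 39.3 and 36.0 FPKM in papilloma (log2 fold change -0.82 ± 0.089, adjusted p = 6.63e-05). Lrig1, which removes EGFR from the membrane and marks follicle stem cells, was at 27.2, 19.1 and 24.5 in epidermis against 10.3, 13.1 and 9.28 FPKM in papilloma (log2 fold change -1.05 ± 0.16, adjusted p = 0.00055). The call of Egfr was lost with epidermis 3 alone (0.42, adjusted p = 0.0636). Erbb3, at 28.4, 26.3 and 30.7 in epidermis against 30.3, 38.7 and 39.2 FPKM in papilloma (log2 fold change 0.32 ± 0.12, adjusted p = 0.0406), lost its call without epidermis 1 or 2 or papilloma 2 or 3, with adjusted p of 0.0862, 0.114, 0.13 and 0.129. It was lost as well without the filter on low values (0.0562), without a trend (0.0544), by limma-voom (0.0515) and in a fit with all 12 libraries (0.0573), and against epidermis 3 alone the change was 0.22 (0.313).

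Among RAS genes and the feedback genes of the MAPK cascade 7 of 20 were higher and 1 lower at 2-fold (median 0.62). Hras1, the usual target of DMBA, was at 162, 197 and 158 in epidermis against 95.8, 96.2 and 85.6 FPKM in papilloma (log2 fold change -0.89 ± 0.11, adjusted p = 0.000156). Transcript levels do not show whether it was mutated. Phlda1, a pleckstrin homology protein, was at 3.78, 2.50 and 4.50 in epidermis against 56.6, 70.7 and 51.5 FPKM in papilloma (log2 fold change 3.73 ± 0.19, adjusted p = 1.27e-06). Dusp5, a phosphatase for ERK, rose by 1.84, Spred3, an inhibitor of RAF activation, by 2.76 and Etv4, an ETS factor downstream of ERK, by 2.40. Spry1, a sprouty inhibitor, was at 38.6, 35.4 and 46.6 in epidermis against 13.5, 14.2 and 14.7 FPKM in papilloma (log2 fold change -1.44 ± 0.12, adjusted p = 1.45e-05), so the feedback genes did not all move together. AP-1 and immediate early genes gave 5 higher and 2 lower of 22 (median 0.065), but 4 and 4 without epidermis 2, and 4 were lower without epidermis 3. Fosl1, the FOS relative FRA-1, was at 1.5, 0.529 and 1.51 in epidermis against 30.4, 22.9 and 30.0 FPKM in papilloma (log2 fold change 3.75 ± 0.21, adjusted p = 2.37e-06). Junb was at 88.4, 85.4 and 134 in epidermis against 244, 241 and 224 FPKM in papilloma (log2 fold change 1.22 ± 0.17, adjusted p = 0.000264). Jund was at 137, 155 and 187 in epidermis against 39.7, 43.6 and 47.3 FPKM in papilloma (log2 fold change -1.84 ± 0.13, adjusted p = 6.82e-06). Ier3, an immediate early survival gene, rose by 2.43 and Egr2, a zinc finger factor, fell by 2.12. Fos, at 21.2, 8.09 and 7.32 in epidermis against 29.7, 22.1 and 26.0 FPKM in papilloma (log2 fold change 1.17 ± 0.34, adjusted p = 0.0143), lost its call without epidermis 2 (0.97, adjusted p = 0.0553), with robust variance (0.0624) and in a fit with all 12 libraries (0.0782).

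**Figure D3:**
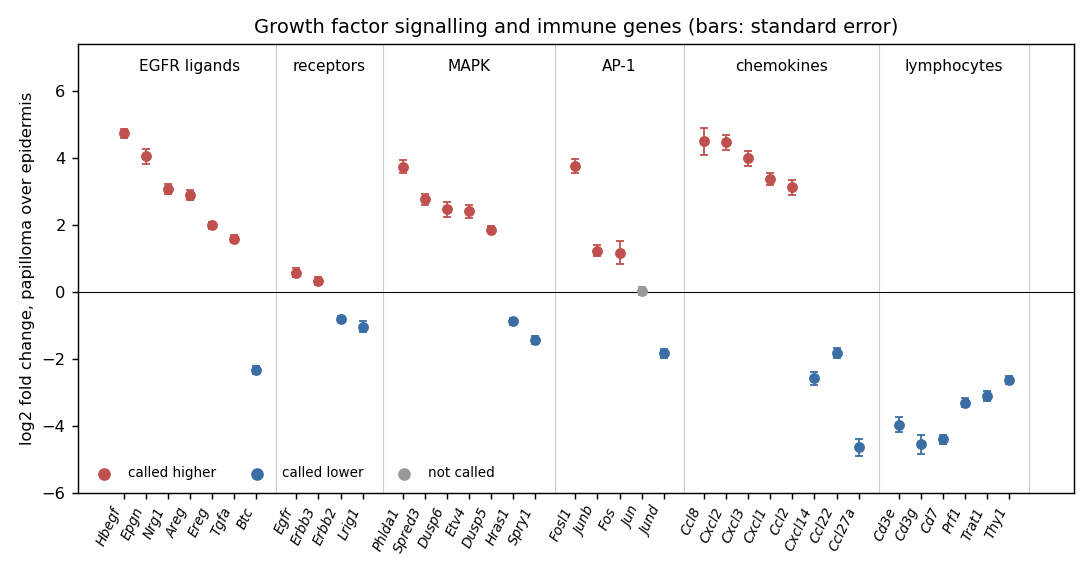
Log2 fold change (papilloma over epidermis, vertical, with standard errors) of EGFR ligands, receptors, MAPK feedback genes, AP-1 genes, chemokines and lymphocyte genes; red was called higher, blue lower and grey not called. The ligands shown other than Btc lie between 1.59 and 4.74 while the 4 genes of the receptor group lie between -1.05 and 0.57, and the 6 lymphocyte genes lie between -4.56 and -2.64.

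Other developmental signals changed gene by gene. In the Wnt list 7 of 18 tested were lower and 3 higher at 2-fold (median -0.35). Wnt3 was at 53.9, 64.0 and 73.1 in epidermis against 4.12, 8.17 and 5.80 FPKM in papilloma (log2 fold change -3.23 ± 0.21, adjusted p = 4.41e-06). Wnt7b fell by 2.76, and Axin2, the standard feedback target of beta-catenin signalling, was at 20.7, 17.1 and 23.7 in epidermis against 2.06, 3.82 and 2.55 FPKM in papilloma (log2 fold change -2.51 ± 0.19, adjusted p = 1.02e-05). Wnt5a, which usually signals without beta-catenin, was at 4.02, 4.97 and 5.15 in epidermis against 40.1, 37.6 and 38.5 FPKM in papilloma (log2 fold change 2.80 ± 0.11, adjusted p = 4.60e-07). In the Notch list 4 were higher and 2 lower of 18, but 2 and 2 without epidermis 2, and 0 and 1 with a pseudocount of 3. Dll4 and Heyl, which are also vascular genes, rose by 1.42 and 1.29, and Hey1 and Lfng had log2 fold changes of -1.32 and -1.33. For TGF beta and activin 5 were higher and 3 lower of 21 (median 0.46). Fst, follistatin, which binds activin, was at 6.46, 5.46 and 8.98 in epidermis against 141, 121 and 119 FPKM in papilloma (log2 fold change 4.03 ± 0.16, adjusted p = 4.79e-07). Inhba, the activin A subunit, was at 0.0549, 0 and 0.0620 in epidermis against 2.17, 1.52 and 2.06 FPKM in papilloma (log2 fold change 1.48 ± 0.13, adjusted p = 2.37e-05). Bmp4 and Bmp2 had log2 fold changes of -1.78 and -1.41.

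Prostaglandin and leukotriene genes were lower in 6 and higher in 4 of 15 tested (median -0.72). Ptgs2, the inducible cyclooxygenase, was at 0.533, 0.346 and 0.852 in epidermis against 11.4, 12.7 and 21.2 FPKM in papilloma (log2 fold change 3.32 ± 0.23, adjusted p = 6.40e-06). Ptges, the prostaglandin E synthase, was at 27.0, 23.9 and 30.5 in epidermis against 121, 118 and 124 FPKM in papilloma (log2 fold change 2.12 ± 0.10, adjusted p = 1.16e-06). Alox12e, the epidermal lipoxygenase, was at 494, 457 and 467 in epidermis against 12.7, 21.1 and 7.24 FPKM in papilloma (log2 fold change -5.12 ± 0.30, adjusted p = 2.62e-06). Alox5 was at 24.0, 23.0 and 23.1 in epidermis against 1.94, 2.28 and 1.58 FPKM in papilloma (log2 fold change -3.06 ± 0.12, adjusted p = 4.73e-07). Alox8 rose by 2.39. Among polyamine and arginine genes 7 of 12 were higher and 3 lower (median 1.14). Odc1, ornithine decarboxylase, the classical TPA-induced enzyme, was at 20.1, 29.5 and 22.9 in epidermis against 84.8, 106 and 78.4 FPKM in papilloma (log2 fold change 1.85 ± 0.16, adjusted p = 2.05e-05). Oaz1, its antizyme, was at 129, 159 and 175 in epidermis against 58.3, 67.4 and 54.1 FPKM in papilloma (log2 fold change -1.35 ± 0.14, adjusted p = 4.65e-05). Slc7a1, the cationic amino acid carrier, rose by 2.20, Ass1, which makes argininosuccinate, by 2.50, and Arg1, arginase, was at 45.1, 55.3 and 49.8 in epidermis against 353, 301 and 517 FPKM in papilloma (log2 fold change 2.91 ± 0.19, adjusted p = 4.58e-06).

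Glutathione and NRF2 target genes were 14 of 22 higher and 3 lower at 2-fold (median 1.47), with 5 lower without papilloma 3. Gsta4, a glutathione transferase for lipid aldehydes, was at 14.3, 15.5 and 14.2 in epidermis against 976, 969 and 1189.6 FPKM in papilloma (log2 fold change 6.05 ± 0.11, adjusted p = 1.01e-08). Gsto1 was at 27.9, 29.7 and 31.1 in epidermis against 1398, 1230.0 and 1415 FPKM in papilloma (log2 fold change 5.46 ± 0.10, adjusted p = 1.01e-08). Nqo1, a quinone reductase, was at 2.53, 2.97 and 3.14 in epidermis against 42.3, 34.1 and 39.3 FPKM in papilloma (log2 fold change 3.35 ± 0.12, adjusted p = 3.02e-07). Mgst1, a microsomal transferase, was at 208, 241 and 236 in epidermis against 49.7, 68.3 and 39.8 FPKM in papilloma (log2 fold change -2.13 ± 0.18, adjusted p = 1.77e-05). Txnrd1, thioredoxin reductase, fell by 0.92 although it belongs to the same programme. Cytochrome P450 genes went the other way, 11 of 14 lower and 3 higher (median -1.86). Cyp2f2 was at 26.0, 47.3 and 39.7 in epidermis against 0.485, 1.18 and 0.286 FPKM in papilloma (log2 fold change -4.54 ± 0.26, adjusted p = 2.28e-06). Cyp2w1, Cyp2j6 and Cyp39a1 had log2 fold changes of -2.27, -1.92 and -2.02. Cyp7b1, which hydroxylates oxysterols, was at 0.296, 0.139 and 0.0836 in epidermis against 7.94, 8.67 and 6.81 FPKM in papilloma (log2 fold change 2.91 ± 0.14, adjusted p = 9.96e-07).

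In retinoid handling 8 of 15 tested were higher and 6 lower at 2-fold. Aldh1a3, which makes retinoic acid, was at 1.72, 0.540 and 0.423 in epidermis against 70.8, 75.0 and 90.4 FPKM in papilloma (log2 fold change 5.45 ± 0.24, adjusted p = 6.99e-07), and the binding proteins Rbp2 and Crabp1 rose by 2.49 and 3.67. The receptors Rara and Rarg had log2 fold changes of -1.48 and -1.16, and Dhrs3, a retinal reductase induced by retinoic acid, was at 87.8, 76.9 and 80.9 in epidermis against 15.3, 15.9 and 11 FPKM in papilloma (log2 fold change -2.47 ± 0.14, adjusted p = 2.29e-06). Hypoxia and glycolysis genes were 12 of 24 higher at 2-fold (median 0.90), but 8 without papilloma 1 (median 0.73) and 9 without epidermis 3 (median 0.83). Vegfa, the endothelial growth factor, was at 6.86, 5.23 and 8.10 in epidermis against 86.0, 46.3 and 59.8 FPKM in papilloma (log2 fold change 3.04 ± 0.23, adjusted p = 9.30e-06). Car12, a carbonic anhydrase, rose by 3.08, Slc2a1, a glucose carrier, by 1.89 and Pgam1 by 1.85. Papilloma 1 had the highest value for each of these 4. Aldoa, which muscle also expresses strongly, was at 1271, 1722 and 762 in epidermis against 804, 849.5 and 784 FPKM in papilloma and was not called (log2 fold change -0.55 ± 0.26, adjusted p = 0.0963). Without epidermis 3 it was called lower (-0.86, adjusted p = 0.0029), as it was with the replicate block (adjusted p = 0.0402) and with quantile normalization (0.0478). The unfolded protein response list was close to the background, 3 of 20 higher (5 without epidermis 2) and 2 lower, with Hspa5, the chaperone BiP, at 99.5, 122 and 128 in epidermis against 421, 404 and 424 FPKM in papilloma (log2 fold change 1.83 ± 0.11, adjusted p = 3.48e-06). Of 30 cytosolic ribosomal protein genes 22 were called lower, but 2 by 2-fold (median -0.40); the count by 2-fold was 0 without epidermis 2, 5 without epidermis 1 or papilloma 1 and 4 without epidermis 3, and the median was -0.30 with median-ratio scaling. Rpl13 was at 708, 913 and 814 in epidermis against 411, 412 and 385 FPKM in papilloma (log2 fold change -1.0 ± 0.12, adjusted p = 0.000136).

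Proteases that act on the matrix were mostly higher. Of the 19 metalloproteinase and plasminogen genes tested 13 were higher and 1 lower at 2-fold (median 1.42). Mmp13, a collagenase, was at 0.0587, 0 and 0.614 in epidermis against 56.7, 38.4 and 37.0 FPKM in papilloma (log2 fold change 5.21 ± 0.23, adjusted p = 6.99e-07). Mmp10, a stromelysin, was at 0, 0.0603 and 0.136 in epidermis against 16, 9.47 and 13.1 FPKM in papilloma (log2 fold change 3.67 ± 0.18, adjusted p = 1.26e-06). Mmp9, a gelatinase, was at 11.2, 13.2 and 13.4 in epidermis against 37.9, 40.4 and 25.0 FPKM in papilloma (log2 fold change 1.35 ± 0.18, adjusted p = 0.00021). Plaur, the urokinase receptor, was at 0.366, 0.153 and 0.448 in epidermis against 13.3, 14.2 and 13.2 FPKM in papilloma (log2 fold change 3.47 ± 0.13, adjusted p = 3.63e-07). Timp3, a tissue inhibitor, was at 59.1, 64.4 and 75.1 in epidermis against 7.28, 9.82 and 6.07 FPKM in papilloma (log2 fold change -2.96 ± 0.17, adjusted p = 2.13e-06). Timp1 rose by 2.46. Of the 19 genes tested for epithelial to mesenchymal change 11 were higher (median 1.29). Hmga2, a chromatin protein of embryonic and tumour cells, was at 0.0365, 0 and 0.113 in epidermis against 29.9, 30.2 and 19.1 FPKM in papilloma (log2 fold change 4.68 ± 0.18, adjusted p = 4.42e-07). Itga5, the fibronectin receptor, rose by 2.76, Tnc, tenascin C, by 3.55 and Twist1, a mesenchymal transcription factor, by 2.26. Vim, vimentin, was at 166, 169 and 161 in epidermis against 96.8, 103 and 89.7 FPKM in papilloma (log2 fold change -0.77 ± 0.088, adjusted p = 9.72e-05). Cdh1, E-cadherin, was at 168, 189.5 and 204 in epidermis against 134, 174 and 165 FPKM in papilloma and was not called (log2 fold change -0.25 ± 0.13, adjusted p = 0.107). Vim, which rises in a textbook change of this kind, thus fell.

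Cytokines and chemokines of inflammation were 22 of 33 tested higher and 5 lower at 2-fold (median 2.15). Il24 and Il19, cytokines of keratinocytes and myeloid cells, were close to 0 in epidermis: Il24 was at 0.0799, 0 and 0.181 in epidermis against 19.4, 21.5 and 18.7 FPKM in papilloma (log2 fold change 4.26 ± 0.12, adjusted p = 1.06e-07). Il19 was at 0.178, 0 and 0.101 in epidermis against 20.3, 17.3 and 27.2 FPKM in papilloma (log2 fold change 4.35 ± 0.17, adjusted p = 4.73e-07). Il1f6, an interleukin-1 relative made by keratinocytes, was at 4.95, 6.34 and 5.11 in epidermis against 186, 187 and 334 FPKM in papilloma (log2 fold change 5.14 ± 0.22, adjusted p = 6.51e-07). Il1b was at 0.972, 0.569 and 1.68 in epidermis against 16.8, 34.7 and 22.9 FPKM in papilloma (log2 fold change 3.61 ± 0.28, adjusted p = 1.11e-05). Cxcl1, which attracts neutrophils, was at 0.196, 0.368 and 0.609 in epidermis against 17.0, 11.8 and 11.3 FPKM in papilloma (log2 fold change 3.36 ± 0.18, adjusted p = 1.99e-06). The chemokines that normal epidermis makes were lower instead. Ccl27a, which holds skin-homing T cells, was at 344, 299.8 and 406 in epidermis against 12.9, 19.5 and 8.35 FPKM in papilloma (log2 fold change -4.65 ± 0.26, adjusted p = 2.09e-06). Cxcl14 was at 79.7, 89.4 and 139.5 in epidermis against 13.5, 17.8 and 16.2 FPKM in papilloma (log2 fold change -2.59 ± 0.20, adjusted p = 1.21e-05). Ccl22 and Ccl17, ligands of CCR4, had log2 fold changes of -1.83 and -1.38.

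Myeloid genes rose selectively. Of the 17 neutrophil genes listed 8 were tested, and 6 were higher and 1 lower at 2-fold. With a pseudocount of 3 the counts were 3 higher and 1 lower. The member called lower had a log2 fold change of -2.81. The mean log2 level of the tested members was 1.38 to 1.81 in epidermis and 2.56 to 3.13 in papilloma. The summed FPKM of the listed genes was instead lower in papilloma, at 65.15 to 97.42 against 97.45 to 115.5 in epidermis. Among the higher members, Cxcr2, the neutrophil chemokine receptor, was at 0.306, 0.352 and 1.02 in epidermis against 10.5, 17.7 and 13.8 FPKM in papilloma (log2 fold change 3.27 ± 0.23, adjusted p = 6.70e-06). Csf3r, the receptor for G-CSF, was at 0.134, 0.0269 and 0.0121 in epidermis against 2.17, 4.03 and 3.05 FPKM in papilloma (log2 fold change 1.93 ± 0.18, adjusted p = 2.88e-05). Their levels stayed far under those of S100a8, which keratinocytes also express. Of 22 macrophage and monocyte genes tested 11 were higher and 3 lower (median 0.96). Cd68 was at 9.07, 9.10 and 7.95 in epidermis against 23.5, 21.0 and 25.6 FPKM in papilloma (log2 fold change 1.33 ± 0.11, adjusted p = 1.77e-05), but Csf1r, the receptor for macrophage growth factor, was at 27.8, 24.6 and 26.6 in epidermis against 11, 10.3 and 9.01 FPKM in papilloma (log2 fold change -1.30 ± 0.11, adjusted p = 1.67e-05). Emr1, which encodes a macrophage surface receptor, fell by 1.25. Retnla, a secreted resistin-like protein, was at 304, 118 and 56.6 in epidermis against 11.6, 22.8 and 1.45 FPKM in papilloma (log2 fold change -3.82 ± 0.85, adjusted p = 0.00369), with a wide spread in both tissues, and with epidermis 3 alone its call was lost (-2.68, adjusted p = 0.0912). Mast cell genes were 6 of 10 tested higher and 1 lower at 2-fold (median 1.61), with log2 fold changes from -1.08 to 2.98. Tpsab1, a mast cell tryptase, was at 0.369, 0 and 0 in epidermis against 7.5, 7.95 and 7.82 FPKM in papilloma (log2 fold change 2.98 ± 0.15, adjusted p = 1.43e-06). Cpa3, the mast cell carboxypeptidase, rose by 1.65. B cell genes were below the filter except for Xbp1 and Sdc1, which keratinocytes express.

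Genes of the lymphocytes that reside in normal epidermis were lower, while those of Langerhans and dendritic cells moved in both directions. Mouse epidermis is known for its dendritic gamma delta T cells, which are kept there by Skint proteins of keratinocytes, and for Langerhans cells. Of 30 T and NK cell genes 16 were tested, and 14 were lower at 2-fold (median -2.74). Cd3e, a chain of the T cell receptor complex, was at 26.6, 22.9 and 31.2 in epidermis against 0.212, 1.23 and 1.04 FPKM in papilloma (log2 fold change -3.97 ± 0.23, adjusted p = 2.78e-06). Cd7, a lymphocyte surface protein, was at 45.4, 41.3 and 51.5 in epidermis against 1.33, 1.45 and 0.864 FPKM in papilloma (log2 fold change -4.41 ± 0.14, adjusted p = 1.87e-07). Prf1, perforin, was at 9.26, 10.5 and 11.3 in epidermis against 0.106, 0.272 and 0.0555 FPKM in papilloma (log2 fold change -3.31 ± 0.13, adjusted p = 4.93e-07). Trat1 and Thy1 had log2 fold changes of -3.12 and -2.64. All 9 tested genes of the Skint list, of 14 listed, were lower at 2-fold (median -2.16). Skint10 was at 89.5, 96.6 and 118 in epidermis against 2.27, 3.01 and 1.31 FPKM in papilloma (log2 fold change -5.03 ± 0.20, adjusted p = 4.79e-07). Skint1, which selects these T cells in the thymus, was at 17.0, 21.0 and 18.9 in epidermis against 3.53, 3.87 and 2.97 FPKM in papilloma (log2 fold change -2.16 ± 0.13, adjusted p = 2.84e-06). Cd207, langerin, which defines Langerhans cells, was at 53.1, 45.9 and 53.8 in epidermis against 3.69, 6.31 and 3.88 FPKM in papilloma (log2 fold change -3.23 ± 0.18, adjusted p = 1.88e-06). Epcam, which they share with keratinocytes, fell by 1.32. Cd24a and Fscn1 in the same list rose by 2.78 and 3.30, and neither is restricted to those cells. Counted over 12 tested genes the Langerhans and dendritic cell list had 3 higher and 3 lower.

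Antigen presentation genes were lower throughout: all 17 were tested and called, 15 of them by 2-fold, with a median of -2.0. H2-Ab1, a class II gene of antigen-presenting cells, was at 394, 400.0 and 406 in epidermis against 72.4, 82.5 and 74.3 FPKM in papilloma (log2 fold change -2.38 ± 0.089, adjusted p = 3.60e-07), and its partner H2-Aa fell by 2.26. Cd74, the invariant chain, was at 1214, 1255 and 1358 in epidermis against 176, 199 and 162 FPKM in papilloma (log2 fold change -2.83 ± 0.11, adjusted p = 4.99e-07). H2-DMa, which loads class II molecules, fell by 2.87. The fall was not limited to class II. B2m, the light chain of class I, was at 1653, 1983 and 2138 in epidermis against 437, 687 and 529 FPKM in papilloma (log2 fold change -1.82 ± 0.19, adjusted p = 5.17e-05), with papilloma 2 the highest of its group. Interferon response genes were 6 of 17 tested lower and 1 higher (median -0.66). Irf7 was at 12.5, 11.4 and 10.8 in epidermis against 2.82, 3.58 and 2.99 FPKM in papilloma (log2 fold change -1.61 ± 0.12, adjusted p = 1.03e-05). Usp18 fell by 1.76, and Oasl1, the member called higher, was at 0.454, 0 and 0.171 in epidermis against 10.8, 13.7 and 13.8 FPKM in papilloma (log2 fold change 3.52 ± 0.17, adjusted p = 1.16e-06).

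**Figure D4:**
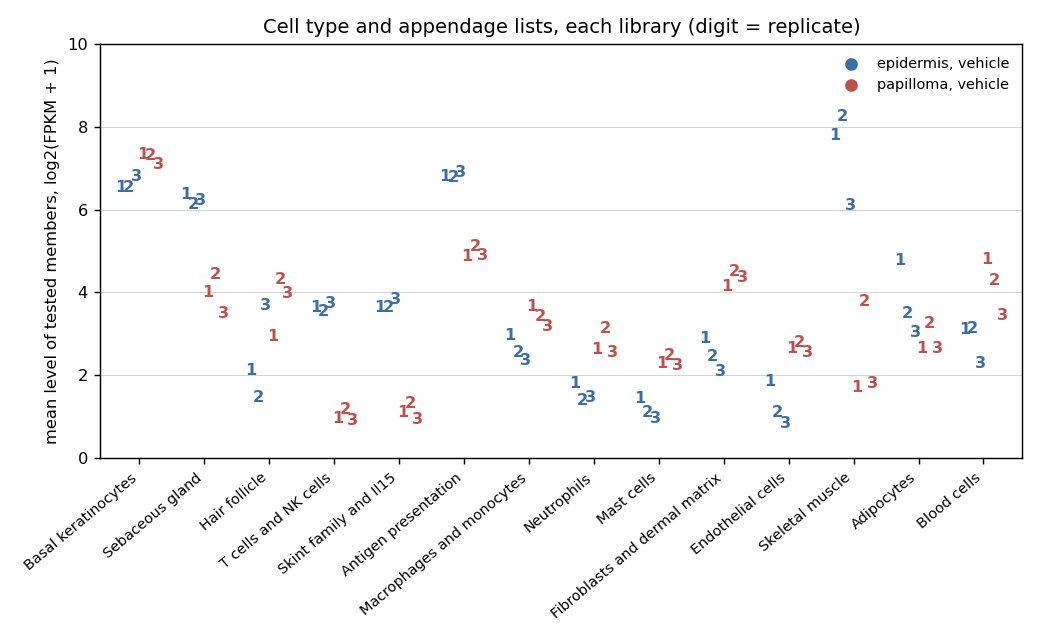
Mean log2(FPKM + 1) over the tested members of each cell type or appendage list (vertical) in each library; the digit is the replicate, blue for epidermis and red for papilloma. T cell, Skint, sebaceous and antigen presentation lists are lower in every papilloma library, fibroblast and endothelial lists are higher, and skeletal muscle ranges from 6.11 to 8.26 within epidermis.

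Most fibroblast and endothelial genes were higher in papilloma. Of 21 fibroblast and matrix genes tested 16 were higher and 1 lower at 2-fold (median 2.42). Col1a1, the main fibrillar collagen chain, was at 9.25, 6.14 and 4.59 in epidermis against 132, 179 and 164 FPKM in papilloma (log2 fold change 4.41 ± 0.21, adjusted p = 1.15e-06). Col1a2 and Col5a2 rose by 3.93 and 3.88, and Pdgfrb, a receptor of mesenchymal cells, by 2.42. Dcn, decorin, a marker of dermal fibroblasts, was at 26.4, 16.9 and 8.90 in epidermis against 9.47, 22.2 and 14.4 FPKM in papilloma and was not called (log2 fold change -0.12 ± 0.39, adjusted p = 0.791). Endothelial genes were 11 of 15 higher (median 1.56). Flt1, a VEGF receptor, was at 0.810, 0.269 and 0.303 in epidermis against 3.64, 3.02 and 3.10 FPKM in papilloma (log2 fold change 1.56 ± 0.17, adjusted p = 6.26e-05). Kdr, Emcn and Eng rose by 1.59, 1.90 and 2.23. Epidermis 1 was the highest of its group for each of these 4. For pericytes and smooth muscle 6 of 12 were higher and 1 lower at 2-fold, with log2 fold changes from -5.01 to 3.20. Rgs5 was at 0.317, 0.170 and 0.0256 in epidermis against 9.76, 10.2 and 8.71 FPKM in papilloma (log2 fold change 3.18 ± 0.14, adjusted p = 6.76e-07). Acta2 was at 2.07, 1.96 and 2.45 in epidermis against 30.9, 30.6 and 23.4 FPKM in papilloma (log2 fold change 3.20 ± 0.14, adjusted p = 6.76e-07). The part that the stroma has in the other gene lists was not tested.

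Skeletal muscle genes were lower in all 23 tested members (median -5.39). Myh4, a fast myosin, was at 305, 377 and 90.2 in epidermis against 0.0112, 0.782 and 0.348 FPKM in papilloma (log2 fold change -7.35 ± 0.49, adjusted p = 4.96e-06). Actn3 was at 136, 196 and 45.0 in epidermis against 0.147, 1.73 and 0.348 FPKM in papilloma (log2 fold change -6.05 ± 0.53, adjusted p = 2.05e-05). For both genes epidermis 2 had the highest and epidermis 3 the lowest value within that tissue, and papilloma 2 the highest among the tumours. Muscle is not a part of the epidermis, and what these transcripts contribute to other genes was not tested. With epidermis 3 alone against the papillomas, 19 of the 23 were lower at 2-fold and the median was -3.97. Of 8 blood cell genes tested 5 were higher and 1 lower at 2-fold, with Ppbp, of platelets, at 0.0832, 0.313 and 0.141 in epidermis against 32.9, 11.9 and 6.30 FPKM in papilloma (log2 fold change 3.65 ± 0.47, adjusted p = 0.000189), and the globin values rest on near-identical copies between which reads were divided.

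**Figure D5:**
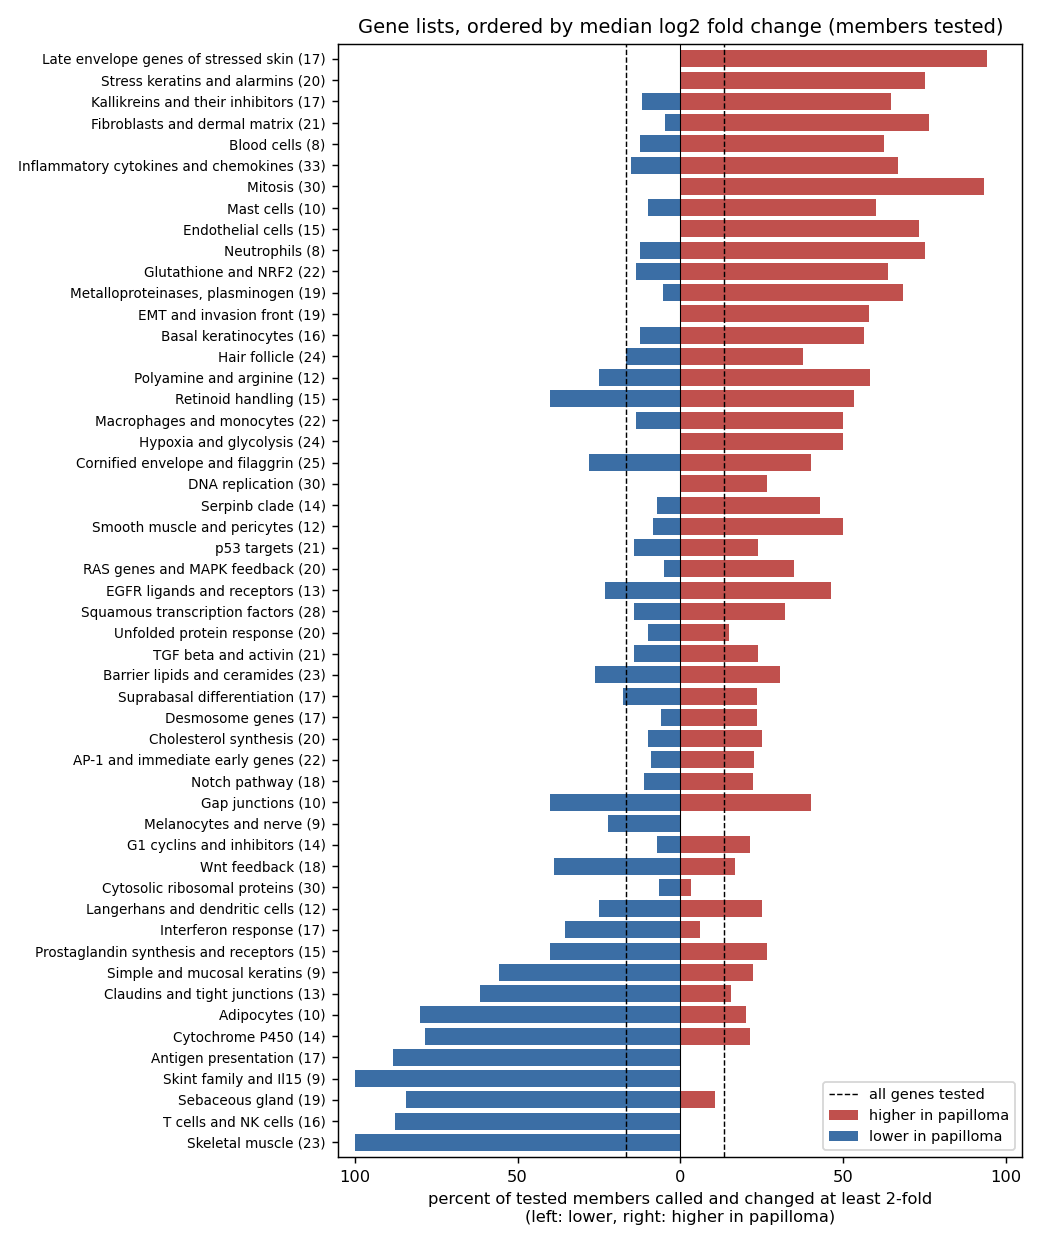
Share of the tested members of each gene list (number in brackets) that was called and changed at least 2-fold, to the right for higher and to the left for lower in papilloma; dashed lines mark the same shares over all 12789 genes, 13.3% and 16.8%. The late envelope list (16 of 17 higher) and the mitosis list (28 of 30) lie farthest to the right, and skeletal muscle (23 of 23 lower) and the Skint list (9 of 9) farthest to the left.

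The same comparison could be made in mice given CWO in place of vehicle, from 6 other libraries. There 20% CWO was given for 24 h in epidermis and for 6 weeks in papilloma. Length of CWO treatment and tissue therefore cannot be told apart. Of 8971 genes called under vehicle and also measured there, 8853 (98.7%) had the same direction under CWO. The tissue difference itself differed between vehicle and CWO for 98 of 13185 genes (0.743%, limma interaction term, adjusted p under 0.05). Among the named genes 10 passed this test. The rises of Slpi, Stfa3, Il1f6, Ehf, Elf3, Aurkb, Idi1 and Pgam1 were larger under vehicle than under CWO, and the falls of Ccl17 and Ccl22 were smaller.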

How the data were processed

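RNA of 3 vehicle epidermis and 3 vehicle papilloma samples was measured by RNA sequencing. The submitters' processing notes name bcl2fastq 1.8.4, TopHat2 2.0.4, Cufflinks 2.0.2, DESeq and mouse build mm9 without giving their roles. Per the file headers, the deposited tables hold FPKM per gene with an interval and a status, in the form Cufflinks writes. The annotation and filters are not given in the sources used here. The deposited FPKM were used without rescaling. A value whose status was not OK was set to missing, and rows that share a symbol (248 symbols) were summed. In addition, 750 genes with names of short non-coding RNA or a span under 200 bases were dropped. Listed starts are counted from 0 and were raised by 1. Fragment numbers recovered from each FPKM and its interval, which were within 0.02 of a whole number for 68.4% to 69.6% of values, gave only the depth and a limma-voom alternative.

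Genes with at least 1 FPKM in at least 3 of the 6 libraries and at least 2 values in each group were tested with limma 3.58.1 (R 4.3.3) on log2(FPKM + 1) with an intensity trend, two-sided, with Benjamini-Hochberg adjustment over all genes tested and a threshold of 0.05. The steps were also run on simulated data in which few genes were changed, whereas most genes differed here. That run therefore cannot show how the steps behave when most genes differ. Leaving out libraries kept the genes of the full comparison. The filter means that a change between 2 low values is not seen, and the pseudocount shrinks the change of low genes. Each papilloma sample pools tumours of a single mouse. The labels do not tie the epidermis samples to single mice in so many words, so p-values measure the spread between these samples. Shared replicate numbers were not used as pairs in the main comparison and served as a block in an alternative.

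The members and gene lists were chosen with earlier results of these data known. Named genes are the 12 largest rises and falls among genes called and separate between the tissues in every library, without unnamed models, pseudogenes and genes listed at several places; in each list up to 4 called members per direction with the smallest p, and uncalled members that define it; and a panel of 30 known skin tumour genes. Adipoq, Alas2, Aldoa, B2m, Cd34, Dcn, Dkk3, Egfr, Erbb3, Fos, Hba-a1, Krt31, Rps3 and, in the plots alone, Ccl2, Ccl8, Cd3g, Dusp6, Epgn, Jun and Tgfa fall outside this rule and were chosen after their values were seen. Promoter sequences are RefSeq's on build GRCm38.p6, matched by symbol. Some genes of the lists are not reported here by name.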

Additional observations from a re-analysis of the deposited data

Results flagged for a closer look

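For 10 of the genes named, the tissue difference under vehicle differed from that in the libraries given CWO, by limma's interaction term on log2(FPKM + 1) over all 12 libraries with Benjamini-Hochberg adjustment over 13185 genes. Each value is the log2 difference between papilloma and epidermis under vehicle minus that under CWO. Since CWO was given for 24 h in epidermis and for 6 weeks in papilloma, its length and the tissue cannot be told apart. Among genes of the barrier and its defence the difference was 2.07 ± 0.32 for Slpi (8.97 under vehicle, 6.90 under CWO, adjusted p = 0.0121), 2.83 ± 0.32 for Stfa3 (6.84 and 4.01, adjusted p = 0.00191) and 2.36 ± 0.35 for Il1f6 (5.14 and 2.79, adjusted p = 0.0114). The ETS factors gave 1.36 ± 0.21 for Ehf (3.66 and 2.30, adjusted p = 0.0139) and 1.62 ± 0.29 for Elf3 (2.65 and 1.03, adjusted p = 0.0291).

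The mitotic kinase gene Aurkb gave 1.33 ± 0.25 (2.06 and 0.73, adjusted p = 0.0329), Idi1, of cholesterol synthesis, 0.94 ± 0.18 (1.5 and 0.56, adjusted p = 0.0366), and Pgam1, of glycolysis, 1.16 ± 0.20 (1.85 and 0.69, adjusted p = 0.0214). For the chemokines the fall was smaller under vehicle: Ccl17 gave 2.36 ± 0.25 (-1.38 and -3.75, adjusted p = 0.00113) and Ccl22 1.78 ± 0.31 (-1.83 and -3.61, adjusted p = 0.0214). Of the 10 genes, 6 kept an adjusted p under 0.05 in all 6 alternative settings. With the replicate number as a block Aurkb, Elf3, Idi1 and Pgam1 reached adjusted p of 0.0724, 0.0671, 0.0644 and 0.0596, and Idi1 reached 0.0701 with median-ratio scaling.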

How the results depend on the processing

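Across 21 alternative settings the tissues differed widely in each. The test against a 2-fold minimum moved the counts most, to 932 genes higher and 1243 lower, from 4070 and 4904 without a minimum and 1702 and 2146 by 2-fold. Leaving out single libraries gave 3553 to 4299 genes higher and 4450 to 5008 lower, or 1588 to 1877 and 2069 to 2253 by 2-fold. Without epidermis 1 and 2 the counts were 3193 and 4676. Pseudocounts of 0.1 and 3 gave 2080 and 1153 higher by 2-fold, and 2537 and 1564 lower. The share of calls that were higher was 50.2% with median-ratio scaling, 49.6% with quantile normalization and 44.8% with limma-voom, against 45.4%.

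With the replicate number as a block 3848 genes were higher and 4692 lower, or 1714 and 2151 by 2-fold. The deviations of samples with the same number correlated at 0.204, -0.019 and 0.245, and those of other pairs at -0.249 to 0.140. With 3 samples per tissue these values cannot decide whether samples of the same number are related. The block ended the call of none of the named genes for the tissue difference and gave a call to 3 that lacked it, Krt18 (adjusted p = 0.0055), Aldoa (0.0402) and Sprr4 (0.0477).

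Of 272 named genes called, 218 kept the call in every setting that gave a value and 54 lost it in at least 1, 53 of them under the 2-fold minimum; of 12 not called, 7 gained a call in at least 1. Krt31 turned from 1.13 to -2.23 with epidermis 1 and 2 left out, where 1 epidermis library has no spread of its own and is assumed to vary as the papillomas do. The direction held by more members by 2-fold stayed in all settings for 41 of 53 lists and differed in at least 1 for 12: suprabasal, cornified envelope, hair follicle, AP-1, Notch, TGF beta, Langerhans and dendritic cell, B cell, melanocyte and nerve, unfolded protein response, gap junction and ribosomal genes. The causes were not tested. Genes near 1 FPKM, of which few fragments were counted, are the least precise.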

Other observations

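Among globin genes the paralogues did not move alike. Hba-a1 was at 380.4, 255 and 196 in epidermis against 2737, 2085 and 399.9 FPKM in papilloma, while Hba-a2 was at 19.4, 48.6 and 5.61 FPKM in epidermis but under 0.01 FPKM in every papilloma library. Hba-a1 was called higher (log2 fold change 2.30 ± 0.65, adjusted p = 0.0122) and Hba-a2 lower (-4.23 ± 0.60, adjusted p = 0.000325). The call of Hba-a1 was lost with robust variance (adjusted p = 0.078) and against epidermis 3 alone (2.74, adjusted p = 0.061). Their coding sequences are near-identical, so single values depend on how fragments were divided between them. Alas2, the first enzyme of haem synthesis in red cells, was at 2.50, 2.53 and 1.46 in epidermis against 29.5, 17.4 and 4.87 FPKM in papilloma, with papilloma 1 the highest and papilloma 3 the lowest of the tumours, as for Hba-a1.

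Rpl26 was the ribosomal protein gene called higher, at 0, 9.08 and 4.10 FPKM in epidermis to 2 decimals and 53.9, 47.9 and 54.0 FPKM in papilloma (log2 fold change 3.83 ± 0.70, adjusted p = 0.00135), against a median of -0.40 over the 30 ribosomal genes. Its values lie far below those of Rps3, at 675, 853 and 723 in epidermis against 995, 848 and 807 FPKM in papilloma, and whether related gene copies took part of its fragments was not tested.

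Melanocyte and nerve genes gave 0 higher and 2 lower by 2-fold of 9 tested. Mitf, the melanocyte transcription factor, was at 3.86, 3.49 and 4.08 in epidermis against 0.796, 1.48 and 0.925 FPKM in papilloma (log2 fold change -1.23 ± 0.15, adjusted p = 0.000149), while Tyrp1, a pigment enzyme, was at 0.749, 0.723 and 1.01 in epidermis against 2.56, 2.28 and 2.86 FPKM in papilloma (log2 fold change 0.96 ± 0.13, adjusted p = 0.000233).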
